A study of Mus musculus with 12 samples.

Results

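The comparison described here sets 4 RNA libraries labelled bleomycin and Il4ra KO (bleomycin KO) against 4 labelled saline and Il4ra WT (saline WT), 8 of the 12 libraries of a bulk RNA sequencing study of Cx3cr1+ macrophages from mouse lung. They were chosen by treatment and genotype in the sample titles. The remaining 4 libraries, from bleomycin-treated Il4ra WT animals (bleomycin WT), entered the fit and serve as the group that separates the labels. Treatment and genotype label differ together between the 8 libraries, so the effect of bleomycin and that of the deletion cannot be told apart in this comparison alone. None of the 12 libraries is labelled saline and Il4ra KO. The labels used give no dose, day, age, sex, strain or driver of the deletion. Nothing in them says that the 4 libraries of 1 group are 4 animals, so the p-values reflect a spread that may be technical only.

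Bleomycin damages lung epithelium, and its instillation is a standard mouse model of lung fibrosis. Resident macrophages of the airspaces and the tissue are then joined by cells that develop from blood monocytes, and in fibrotic lung such cells are known for osteopontin (Spp1), lipid handling and a large lysosomal compartment. The Il4ra product is the chain shared by the receptors for IL-4 and IL-13, which signal through STAT6 and induce genes such as Arg1 and Retnla in mouse macrophages.

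Total counts ran from 8514384 to 16842991 in bleomycin KO. In saline WT they were 3534193, 60598, 10168525 and 6398289 for replicates 1 to 4. Saline WT 2 held counts for 4830 genes, and 1 count in it was worth 10.8 CPM (the count over the TMM-adjusted library total), against at most 0.243 CPM in the other saline WT libraries. Its highest rank correlation with any other library was 0.498, and that of saline WT 1 was 0.658. One bleomycin WT library, replicate 4, also stood apart, with a TMM factor of 0.579. Results are therefore given with all 12 libraries and without saline WT 2, and where it changes them also without bleomycin WT 4.

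Il4ra itself (chromosome 7, 125552120 to 125579474, plus strand) was not lower in the libraries labelled bleomycin KO. Its counts were 456, 3, 2555 and 2085 in saline WT and 7540, 4207, 3042 and 3013 in bleomycin KO. On the CPM scale the saline WT levels were 111, 32.4, 262 and 302, and the bleomycin KO levels were 473, 277, 235 and 343. The groups overlapped. The log2 fold change was 0.87 (SE 0.59), its 95% interval ran from -0.46 to 2.20, and the adjusted p from edgeR was 0.715. Without saline WT 2, where Il4ra had 3 counts, the log2 fold change was 0.65 (SE 0.51, edgeR adjusted p = 0.736). In an exact permutation test, two-sided, p was 0.143, where 4 against 4 libraries can give 0.0286 at the smallest. The deposited value is 1 count per gene over all its exons, so loss of single exons could not be examined. Bleomycin KO is used below as the label of these libraries and not as a measured loss of the transcript.

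The genes that led the response were the secreted matrix protein osteopontin, the synaptogyrin Syngr1 and the creatine transporter Slc6a8. They were the 3 genes higher in bleomycin KO at an adjusted p under 0.05 (edgeR quasi-likelihood test, Benjamini-Hochberg adjustment), 0.018% of the 16679 genes tested, and 0 genes were lower. At an unadjusted p under 0.05, 493 genes (2.96%) were higher and 1013 (6.07%) were lower. On the same libraries and genes DESeq2 called 88 higher and 282 lower, and limma-voom 6 and 6. The common biological coefficient of variation was 0.862.

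Spp1 (chromosome 5, 104435118 to 104441050) encodes osteopontin, a phosphoprotein that binds integrins and CD44. Its level was 1159, 162, 447 and 278 CPM in saline WT against 11140, 13750, 11700 and 10130 CPM in bleomycin KO. Every bleomycin KO library was above every saline WT library, and saline WT 1 was the highest of the saline WT libraries. The log2 fold change was 4.50 (SE 0.69, adjusted p = 0.0437). Without saline WT 2 it was 4.30, with an adjusted p of 0.063.

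Syngr1 (chromosome 15, 80091334 to 80119501) encodes a vesicle membrane protein best known from neurons. It stood at 3.16, 0, 5.23 and 2.03 CPM in saline WT and at 132, 131, 104 and 94.0 CPM in bleomycin KO. The groups did not overlap, and saline WT 2 had no count. Syngr1 rose by a log2 fold change of 5.10 (SE 0.66, adjusted p = 0.0162), and by 5.10 without saline WT 2 (adjusted p = 0.0358). It was also called in the 8 libraries alone (adjusted p = 0.0267), where it was the 1 gene called among 14805 (0.00675%).

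Slc6a8 (chromosome X, 73673150 to 73682502) encodes the transporter that brings creatine into cells. It had 2 counts in all 4 saline WT libraries together and 867 in the bleomycin KO libraries, a ratio of 171 after scaling to library size, with a counting interval of 47.3 to 1417. The bleomycin KO levels were 11.1, 26.2, 10.2 and 18.5 CPM, and no saline WT library was above 0.145 CPM. Slc6a8 passed the test with 12 libraries (adjusted p = 0.0437) and without saline WT 2 (adjusted p = 0.0456). In the 8 libraries alone its adjusted p was 0.055, and that of Spp1 was 0.0506.

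**Figure D1:**
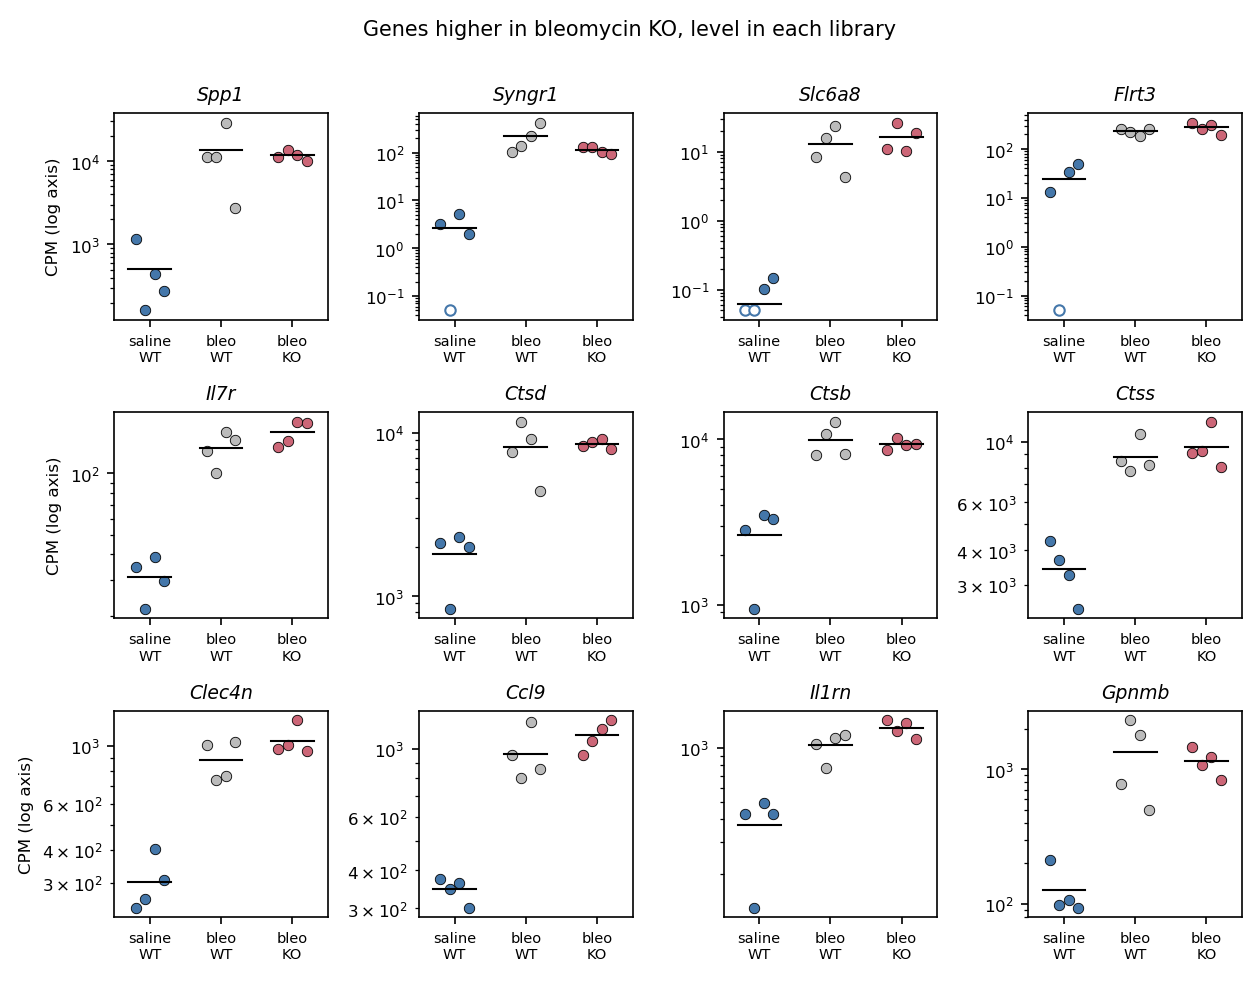
Level of 12 genes in each library (CPM, log axis), in saline WT, bleomycin WT (bleo WT) and bleomycin KO (bleo KO). Points are libraries in replicate order, lines are group means, and open points drawn at 0.05 CPM are libraries at 0. All 4 bleomycin KO libraries lie above all 4 saline WT libraries for each gene, as for Spp1 at 10130 to 13750 against 162 to 1159 CPM.

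Promoter sequence from RefSeq (GRCm38.p6) was found for Spp1 (2 start sites, the first shown) and Syngr1 among the 3 called genes, and is shown because they passed with all 12 libraries. That of Ctsd, the lysosomal gene with the smallest p, is shown beside them. Each sequence runs from 250 bases before to 50 bases after the start of the transcript, 5′ to 3′ on the gene's strand. Capitals mark matches on either strand to 4 motifs: CACGTG (an E-box of the kind bound by TFEB and related lysosomal factors), TGANTCA (AP-1), GAGGAAG (a core of the myeloid factor PU.1) and TTCNNNNGAA (a STAT6-type site).
Syngr1, chr15:80091084-80091383, plus strand: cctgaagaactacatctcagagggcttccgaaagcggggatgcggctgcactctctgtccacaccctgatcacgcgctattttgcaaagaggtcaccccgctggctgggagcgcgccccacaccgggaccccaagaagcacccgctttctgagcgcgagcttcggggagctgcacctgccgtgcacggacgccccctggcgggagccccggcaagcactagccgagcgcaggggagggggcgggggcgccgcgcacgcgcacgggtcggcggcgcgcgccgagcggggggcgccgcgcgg
Spp1, chr5:104434861-104435160, plus strand: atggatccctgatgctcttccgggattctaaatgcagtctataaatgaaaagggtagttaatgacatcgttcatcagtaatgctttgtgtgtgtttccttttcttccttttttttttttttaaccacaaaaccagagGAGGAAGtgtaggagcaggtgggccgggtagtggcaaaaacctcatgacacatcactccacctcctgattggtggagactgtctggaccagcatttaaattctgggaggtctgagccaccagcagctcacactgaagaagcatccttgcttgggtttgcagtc
Ctsd, chr7:142387778-142388077, minus strand: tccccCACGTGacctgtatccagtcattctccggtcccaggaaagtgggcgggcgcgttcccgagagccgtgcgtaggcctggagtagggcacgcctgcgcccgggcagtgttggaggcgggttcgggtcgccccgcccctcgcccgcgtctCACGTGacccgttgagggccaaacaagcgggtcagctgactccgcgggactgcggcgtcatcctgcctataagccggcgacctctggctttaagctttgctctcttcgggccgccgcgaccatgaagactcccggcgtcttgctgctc
The Ctsd window held CACGTG at 2 positions, starting 245 and 98 bases before the start. A match to CACGTG was present in 7.15% of 32851 RefSeq promoter windows of this length. The window of the first Spp1 start site held 1 GAGGAAG, starting 113 bases before the start, that of the second held no match to the 4 motifs, and 13.6% of all windows held that motif. No match to the 4 motifs was found in the Syngr1 window. TGANTCA and TTCNNNNGAA were in none of the 3 windows shown and in 7.81% and 6.95% of all windows. Binding was not measured, so these matches describe the letters only.

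Leaving out saline WT 2 brought lysosomal proteases, chemokine and cytokine genes past the threshold. In that fit of 11 libraries 10 genes were higher in bleomycin KO, 0.054% of 18535 tested, and 0 were lower. Syngr1 and Slc6a8 were among them, and the other 8 were the cathepsins Ctsd, Ctsb and Ctss, the IL-1 receptor antagonist Il1rn, the chemokine Ccl9, the fungal lectin receptor Clec4n (Dectin-2), the IL-7 receptor Il7r and the adhesion protein Flrt3. For all 10 genes the 4 bleomycin KO libraries were above the saline WT libraries, saline WT 2 included. That was so for 8.17% of the 16679 genes tested with 12 libraries, and the reverse for 1.04%. With 12 libraries the adjusted p of the added 8 lay between 0.0913 (Ctsd) and 0.207 (Il1rn).

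Ctsd, the main aspartic protease of the lysosome, stood at 2105, 832, 2311 and 2007 CPM in saline WT and at 8271, 8826, 9118 and 7970 CPM in bleomycin KO. Ctsb, a cysteine protease of the lysosome, stood at 2844, 940, 3492 and 3281 CPM against 8624, 10270, 9217 and 9346 CPM. Ctss, a cysteine protease that also trims the invariant chain of MHC class II, stood at 4339, 3697, 3261 and 2445 CPM against 9092, 9244, 11830 and 8051 CPM. For Ctsd and Ctsb the lowest saline WT library was replicate 2, and for Ctss it was replicate 4. Without saline WT 2 the log2 fold changes were 2.08 for Ctsd, 1.63 for Ctsb and 1.59 for Ctss, with adjusted p of 0.0456, 0.0456 and 0.0492.

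Il1rn, whose product blocks the IL-1 receptor, was at 427, 130, 497 and 428 CPM in saline WT and at 1420, 1244, 1368 and 1117 CPM in bleomycin KO. Ccl9, a CC chemokine of mouse myeloid cells, was at 375, 346, 364 and 302 CPM against 955, 1064, 1165 and 1242 CPM. Clec4n was at 241, 259, 404 and 306 CPM against 973, 1005, 1252 and 956 CPM. The spread within each bleomycin KO group was small beside these gaps. Without saline WT 2 the log2 fold changes were 1.59 for Il1rn, 1.75 for Ccl9 and 1.80 for Clec4n, and the adjusted p lay between 0.0456 and 0.0497.

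Il7r is a marker of lymphocytes and is also made by some macrophages. Its level was 34.8, 21.6, 38.8 and 29.6 CPM in saline WT against 135, 144, 180 and 178 CPM in bleomycin KO, a log2 fold change of 2.28 without saline WT 2 (adjusted p = 0.0456). The other 15 T and NK cell markers summed to 54.1 to 637 CPM in saline WT, lowest in saline WT 2, and to 366 to 788 CPM in bleomycin KO. Of the 16 markers tested 15 had a log2 fold change above 0 (median 0.70), and Il7r was the 1 that passed in the fits of 11, 10 and 7 libraries. Their part in the Il7r result was not tested. Flrt3 was at 12.9, 0, 33.0 and 49.7 CPM against 342, 257, 313 and 197 CPM (log2 fold change 3.21 without saline WT 2, adjusted p = 0.0456).

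The number of genes called depended on which libraries stood in the fit. The 7 libraries of both groups without saline WT 2 gave 21 genes higher and 7 lower, 0.123% and 0.0411% of 17020. Leaving out saline WT 2 and bleomycin WT 4 together gave 71 higher and 50 lower, 0.377% and 0.266% of 18812. Of these 121 genes 112 were protein coding, and 3 were also called with 12 libraries. The groups did not overlap for any of the 121 genes once saline WT 2 was left out. All 117 that were also tested with 12 libraries had the same sign there. That fit holds the same 10 libraries, so the shared sign is no independent evidence. Among the 16679 genes tested with 12 libraries, bleomycin KO lay above the 3 remaining saline WT libraries without overlap for 9.29% and below them for 7.25%.

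**Figure D2:**
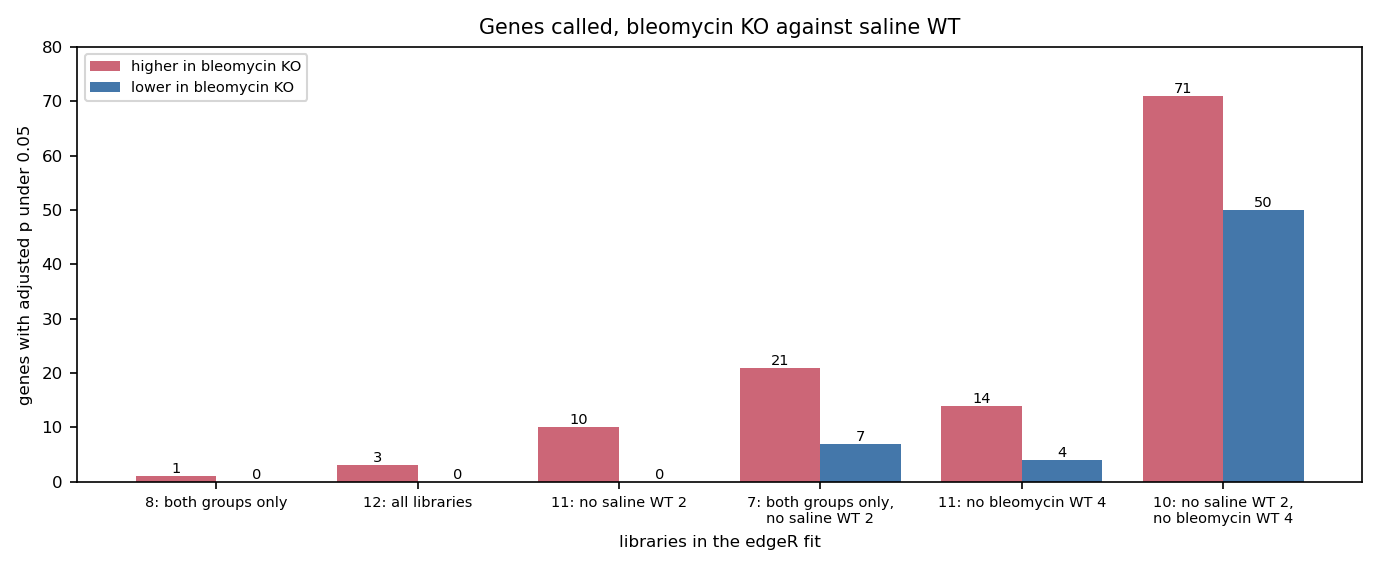
Genes with an adjusted p under 0.05 in bleomycin KO against saline WT, by the libraries in the edgeR fit. Bars start at 0 and give genes higher (red) and lower (blue); the fits of 8 and 12 libraries call 1 and 3 genes, and the fit without saline WT 2 and bleomycin WT 4 calls 71 and 50.

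The genes of scar-associated, lipid-handling macrophages had the most members called of any list in the fits of 12, 7 and 10 libraries. Of 29 tested, 27 had a log2 fold change above 0, with a median of 1.18. Over all 16679 genes tested 8617 were above 0, with a median of 0.04. Spp1 and Syngr1 rose with 12 libraries, and 12 members rose in the fit of 10 libraries, where 0.377% of all genes rose. Beside Spp1 and Syngr1 these were the lipid sensor Trem2, the scavenger receptor Msr1, the glycoprotein Gpnmb, the apolipoprotein Apoe, the fatty acid binding protein Fabp5, the metalloproteases Mmp12 and Mmp14, the protease inhibitor Timp2, Il1rn and the tetraspanin Cd63. The list was chosen with earlier results of these data known and is no independent evidence of its direction.

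Gpnmb, a membrane glycoprotein of lipid-loaded macrophages, was at 210, 97.3, 107 and 93.7 CPM in saline WT and at 1460, 1080, 1226 and 836 CPM in bleomycin KO. Its adjusted p was 0.0733 with 12 libraries and 0.0288 in the 7 libraries. Msr1, which takes up modified lipoproteins, was at 92.7, 64.9, 137 and 95.7 CPM against 528, 516, 448 and 497 CPM, with an adjusted p of 0.171 with 12 libraries and 0.0122 in the 7. Trem2 was at 183, 368, 95.5 and 101 CPM against 436, 474, 494 and 481 CPM. Its highest saline WT library was replicate 2, and leaving that library out moved its log2 fold change from 1.38 (adjusted p = 0.376) to 1.98 (adjusted p = 0.063); in the 7 libraries its adjusted p was 0.0494.

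Apoe, which carries lipids between cells, was among the most abundant transcripts. It made up 13310, 4853, 6950 and 9425 CPM in saline WT against 30100, 33000, 25600 and 22950 CPM in bleomycin KO. The libraries did not overlap, and Apoe rose in the fit of 10 libraries (log2 fold change 1.47, SE 0.25, adjusted p = 0.0374). Cd9 and Cd36 were among the members that did not pass in the fits of 12 or 10 libraries. Cd9, a tetraspanin used to mark scar-associated macrophages, averaged 1135 ± 683 CPM in saline WT against 1513 ± 185 CPM in bleomycin KO (SD, n = 4), and the fatty acid transporter Cd36 averaged 421 and 378 CPM. Cd63, which passed with 10 libraries (adjusted p = 0.0491), shares near-identical sequence with a pseudogene and is uncertain.

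Most lysosomal genes had a higher level in bleomycin KO, and few passed the test. Of 34 tested, 32 had a log2 fold change above 0 (median 0.99), against 8617 of all 16679 genes. With 12 libraries 0 passed, 3 passed without saline WT 2 and 8 in the fit of 10 libraries. Over all genes 0.018%, 0.054% and 0.377% were called higher in these fits. In the last fit the membrane protein Lamp1 rose from an average of 407 ± 134 CPM (SD, n = 3, without saline WT 2) to 1207 ± 299 CPM (SD, n = 4; log2 fold change 1.54, adjusted p = 0.0461). Tpp1, a lysosomal peptidase, and the cathepsin Ctsh passed there as well, at log2 fold changes of 0.93 and 0.90. Prosaposin, Psap, stood at 2883, 865, 3602 and 3631 CPM against 10720, 6667, 6785 and 6941 CPM and did not pass in these fits (adjusted p = 0.503 with 12 libraries and 0.161 with 10). The members at the low end were the alpha-glucosidase Gaa and the cathepsin Ctsf, at -0.30 and -0.06.

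Some secreted mediators of repair and fibrosis passed the test. Of 28 tested, 22 had a log2 fold change above 0 (median 1.08), and 6 rose in the fit of 10 libraries: Spp1, Mmp12, Mmp14, Il1rn, Timp2 and Areg. Over all genes 0.377% rose there. All of these 6 except Areg also stand in the scar-associated list and were counted with it above. Mmp12, the macrophage elastase, was at 502, 43.2, 157 and 184 CPM in saline WT and at 1473, 1609, 2200 and 2460 CPM in bleomycin KO, without overlap (adjusted p = 0.171 with 12 libraries and 0.0374 with 10). Areg, the EGF receptor ligand amphiregulin, was at 35.5, 64.9, 34.8 and 37.5 CPM against 130, 150, 164 and 150 CPM (adjusted p = 0.0188 in the 7 libraries). Growth factors of the PDGF family were low in both groups: Pdgfb averaged 1.86 and 18.1 CPM, with no overlap and an adjusted p of 0.232.

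Fibronectin, Fn1, was at 184, 422, 311 and 337 CPM in saline WT and at 4028, 1214, 639 and 1025 CPM in bleomycin KO. The groups did not overlap, but bleomycin KO 1 was several times higher than the other libraries of its group, and the adjusted p was 0.333. Tgfb1, a central profibrotic cytokine, averaged 104 ± 37.4 CPM in saline WT against 109 ± 54.9 CPM in bleomycin KO (SD, n = 4). Its log2 fold change was 0.03 (SE 0.55). The growth factor Igf1 averaged 99.9 and 232 CPM, with an adjusted p of 0.674.

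Genes of alveolar macrophage identity did not move as one. Of 29 tested, 10 had a log2 fold change above 0 (median -0.62). The 1 member called with 12 libraries, Spp1, was higher, but it also stands in the scar-associated and secreted lists and is not particular to this one. In the fit of 10 libraries the keratins Krt79 and Krt19 and the eosinophil-associated ribonuclease Ear1 were lower. Krt79 was at 63.2, 184, 161 and 85.6 CPM in saline WT and at 2.95, 2.84, 12.3 and 7.75 CPM in bleomycin KO, so the groups did not overlap (log2 fold change -4.01, SE 0.69, adjusted p = 0.0413 with 10 libraries and 0.171 with 12). Krt19, which epithelial cells also make, was at 176, 10.8, 253 and 274 CPM against 13.7, 24.1, 26.2 and 20.1 CPM, and saline WT 2 overlapped the bleomycin KO libraries. It fell in the fit of 7 libraries (adjusted p = 0.0122) and of 10 (log2 fold change -3.49, adjusted p = 0.0111).

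Other genes of the alveolar list were less clear. Ear1 was at 34.5, 0, 40.2 and 23.3 CPM against 1.07, 2.11, 3.40 and 2.17 CPM (adjusted p = 0.0325 with 10 libraries). The lectin Siglecf averaged 56.1 ± 43.0 CPM in saline WT against 27.2 ± 3.94 CPM in bleomycin KO, and the scavenger receptor Marco 67.5 ± 33.8 and 55.4 ± 24.6 CPM (SD, n = 4). Both overlapped between the groups, with adjusted p of 0.736 and 0.941. Lpl, the lipoprotein lipase that alveolar and lipid-handling macrophages share, stood higher in all 4 bleomycin KO libraries at 1205 to 1571 CPM, against 314 to 924 CPM in saline WT (adjusted p = 0.351). In bulk libraries fewer cells of a type and less RNA per cell cannot be told apart.

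Most markers of non-classical, patrolling monocytes had a lower level in bleomycin KO, and few passed the test. Of 21 tested, 1 had a log2 fold change above 0 (median -1.42). With 12 libraries 0 passed, and in the fit of 10 libraries 3 fell: Treml4, Pglyrp1 and Ifitm6. Over all genes 0.266% fell there. Ifitm6 is also in the classical monocyte list. Pglyrp1 was at 117.2, 10.81, 517.5 and 322.5 CPM in saline WT against 36.92, 22.61, 39.3 and 33.61 CPM in bleomycin KO. It was highest in saline WT 3 and 4, as were the summed neutrophil markers below. The part of those cells was not tested. The summed level of the list overlapped, at 3300 to 7870 CPM in saline WT and at 2180 to 3350 CPM in bleomycin KO. That overlap came from saline WT 2 alone. Without it the saline WT sums were 3410 to 7870 CPM, above every bleomycin KO library. Treml4, a receptor of patrolling monocytes, was at 155, 97.3, 430 and 272 CPM in saline WT and at 20.9, 9.43, 28.2 and 27.2 CPM in bleomycin KO. All saline WT libraries were above all bleomycin KO libraries. Its log2 fold change was -3.74 with 10 libraries (SE 0.46, adjusted p = 0.0114), and its adjusted p was 0.0466 with 7 and 0.211 with 12. The sphingosine-phosphate receptor S1pr5, outside the lists and named after its values were seen, was at 37.7, 75.7, 63.3 and 42.7 CPM against 3.52, 5.01, 4.57 and 2.96 CPM (adjusted p = 0.0262 in the 7 libraries). Nr4a1, a factor these monocytes need that also stands in the dissociation and stress list, averaged 1163 and 1146 CPM.

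Classical monocyte genes were divided. Of 20 tested, 5 had a log2 fold change above 0 (median -0.90). With 12 libraries 0 were called, and with 10 libraries 3 were lower: Plac8, Hp and Ifitm6, against 0.266% of all genes. Plac8 was at 136, 162, 691 and 302 CPM in saline WT and at 47.7, 66.1, 68.8 and 51.1 CPM in bleomycin KO, without overlap. The monocyte chemokine receptor Ccr2 pointed the other way, at 212, 43.2, 448 and 152 CPM against 666, 536, 632 and 417 CPM, and did not pass (adjusted p = 0.522).

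Cx3cr1, the fractalkine receptor by which the cells were defined, was at 196, 940, 136 and 98.1 CPM in saline WT and at 86.2, 90.6, 91.3 and 121 CPM in bleomycin KO. Saline WT 2 was far above the rest and the groups overlapped. Its log2 fold change was -1.77 with 12 libraries (adjusted p = 0.519) and -0.48 without saline WT 2 (adjusted p = 0.865). Of the 12 defining macrophage genes 8 had a log2 fold change above 0, and all 12 were detected in each group. Fcgr1, the high-affinity IgG receptor, was the 1 member that passed in the 7 libraries, at 64.5, 10.8, 84.2 and 59.7 CPM against 177, 207, 206 and 176 CPM (adjusted p = 0.0494).

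**Figure D3:**
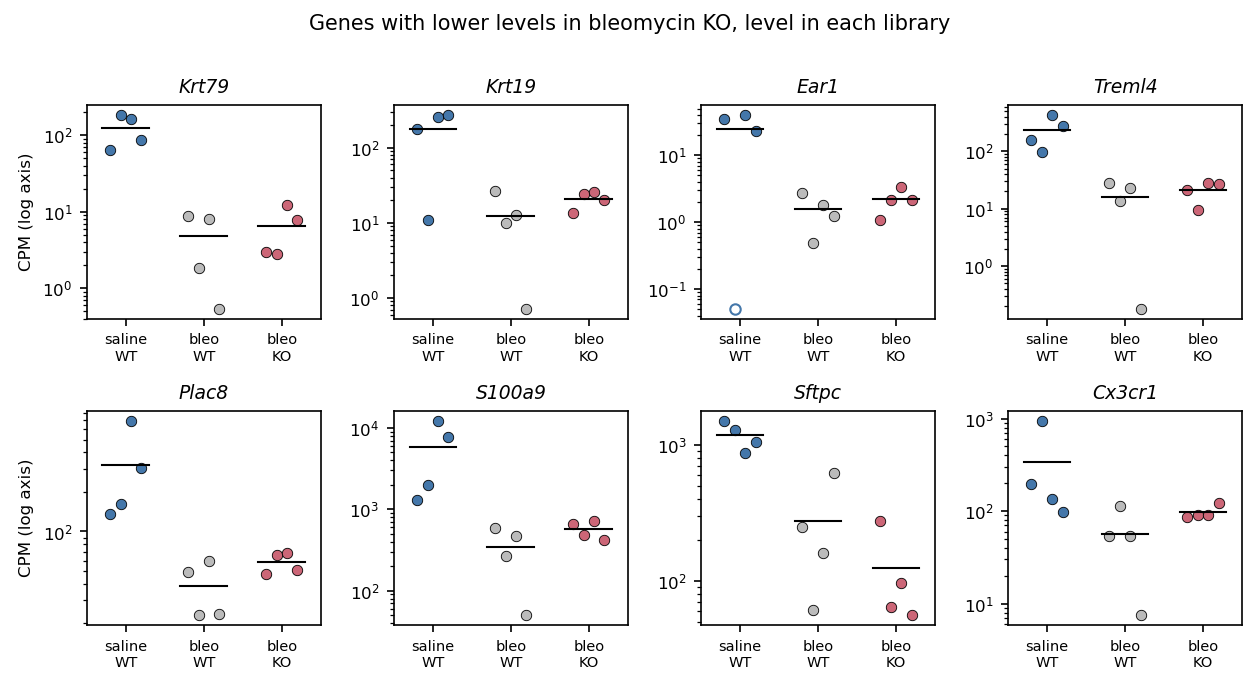
Level of 8 genes in each library (CPM, log axis), in saline WT, bleomycin WT (bleo WT) and bleomycin KO (bleo KO). Points are libraries in replicate order, lines are group means, and the open point drawn at 0.05 CPM is a library at 0; Treml4 lies at 97.3 to 430 CPM in saline WT and at 9.43 to 28.2 CPM in bleomycin KO, while Krt19, Ear1 and Cx3cr1 overlap or depend on saline WT 2.

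Markers of some other cells, neutrophils among them, also had a lower level in bleomycin KO. The summed level of 14 neutrophil markers was 2980 to 33900 CPM in saline WT against 1580 to 2590 CPM in bleomycin KO, and all 14 had a log2 fold change below 0 (median -3.25). S100a9, a calcium-binding alarmin of neutrophils and monocytes, was at 1298, 1989, 12140 and 7791 CPM against 656, 480, 726 and 417 CPM. Saline WT 3 and 4 were several times higher than saline WT 1 and 2. S100a8, S100a9 and Retnlg fell in the fit of 10 libraries, at log2 fold changes of -3.79, -3.63 and -3.54, where 0.266% of all genes fell. The neutrophil sum was highest in the same saline WT libraries in which Plac8 was highest, and its part in the lower monocyte genes was not tested.

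Lung epithelial markers summed to 1900 to 2710 CPM in saline WT against 292 to 807 CPM in bleomycin KO. Surfactant protein C, Sftpc, made by alveolar type 2 cells, was at 1506, 1286, 880 and 1055 CPM against 278, 64.1, 95.9 and 55.6 CPM, without overlap (adjusted p = 0.189 with 12 libraries and 0.049 with 10). Epcam, a general epithelial marker, averaged 24.4 CPM in both groups. Endothelial markers summed to 324 to 610 CPM (417 to 610 without saline WT 2) against 126 to 211 CPM, and Cyp4b1 and Egfl7 fell in the fit of 10 libraries. The macrophage markers summed to 13500 to 37400 CPM in saline WT (28900 to 37400 without saline WT 2) against 44800 to 64800 CPM in bleomycin KO. Most of that sum was the lysozyme Lyz2, which monocytes and neutrophils also make, and without it the sums overlapped, at 4200 to 9300 CPM and 9280 to 11100 CPM. None of the other-cell markers was called lower with 12 libraries. The part of these cells in the lower levels of Krt19 and other genes was not tested.

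Dendritic cell markers summed to 162 to 2060 CPM in saline WT (733 to 2060 without saline WT 2) against 879 to 1020 CPM in bleomycin KO. The sums for fibroblasts and smooth muscle were 427 to 579 and 254 to 701 CPM, and those for B and plasma cells 808 to 12200 and 786 to 1850 CPM. The B cell maximum came from Ebf1 in saline WT 2, at 11470 CPM against 18.2 to 30.6 CPM in the other saline WT libraries. T and NK cell markers summed to 75.7 to 667 CPM in saline WT (473 to 667 without saline WT 2) against 500 to 968 CPM in bleomycin KO. Eosinophil, basophil and mast cell markers summed to 21.6 to 1930 CPM (150 to 1930 without saline WT 2) and 164 to 274 CPM. Those of erythroid cells and platelets summed to 21.6 to 41.3 and 5.59 to 14.7 CPM. Dissociation and stress genes summed to 7420 to 18500 (15700 to 18500 without saline WT 2) and 13100 to 18600 CPM, with 0 called among 17. Saline WT 2, where 1 count is worth 10.8 CPM, gave the lowest saline WT sum of the dendritic, T and NK, eosinophil, erythroid and stress lists.

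**Figure D4:**
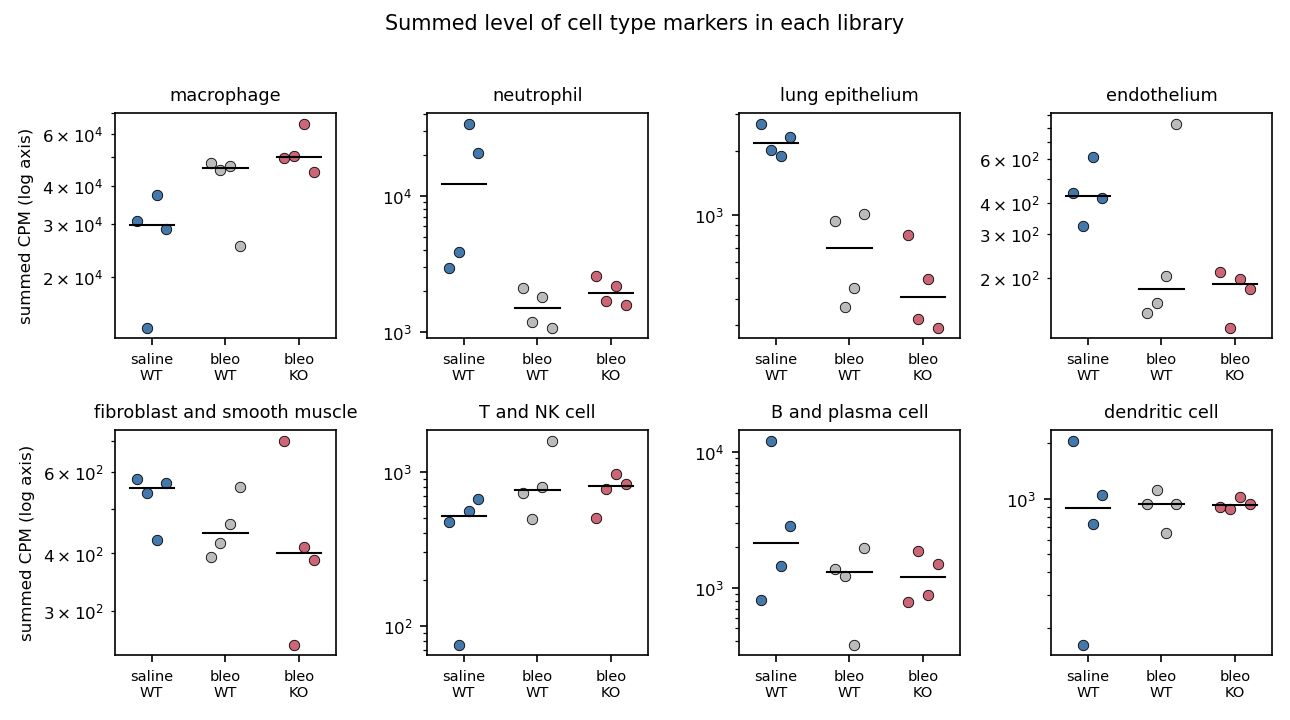
Summed CPM (log axis) of the markers of 8 cell types in each library, in saline WT, bleomycin WT (bleo WT) and bleomycin KO (bleo KO). Points are libraries in replicate order and lines are group medians; neutrophil sums are 2980 to 33900 CPM in saline WT against 1580 to 2590 CPM in bleomycin KO, and the macrophage sums, most of them Lyz2, are 13500 to 37400 and 44800 to 64800 CPM.

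None of the genes of the IL-4 receptor pathway passed with 12 libraries. Of 15 tested, 11 had a log2 fold change above 0 with 12 libraries (median 0.44). In the fit of 11 libraries 9 were above 0 (median 0.18), and in that of 10 libraries 8 were (median 0.1). The transcription factor Stat6 averaged 318 ± 85.3 CPM in saline WT against 272 ± 58.0 CPM in bleomycin KO (SD, n = 4), and Il13ra1, the partner chain for IL-13, 238 ± 208 and 192 ± 34.0 CPM. Socs3, a feedback inhibitor of cytokine signalling induced mainly by STAT3, was the 1 member to pass with 10 libraries (adjusted p = 0.0473). It stood at 203, 97.3, 176 and 254 CPM against 810, 544, 466 and 446 CPM. The groups did not overlap for Socs3, and bleomycin KO 1 was the highest library.

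Target genes of IL-4 and IL-13 did not change together. Of 28 tested, 18 had a log2 fold change above 0, and 0 were called in the fits of 12, 11, 10, 8 or 7 libraries. With 12 libraries their median was 0.42, with Rnase2a at its bound as well. In the fits of 11 and 10 libraries 16 were above 0 instead of 18, with medians of 0.31 and 0.19. Arg1, the arginase of alternatively activated mouse macrophages, was at 20.4, 0, 0.513 and 10.6 CPM in saline WT and at 95.7, 163, 93.8 and 198 CPM in bleomycin KO. All bleomycin KO libraries were higher, and the adjusted p was 0.207 with 12 libraries and 0.105 with 10. Rnase2a had 0 counts in saline WT and 112 in bleomycin KO, at least 14.9-fold higher against 3 counts over the group (adjusted p = 0.293).

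The mannose receptor Mrc1 averaged 501 ± 118 CPM in saline WT against 552 ± 116 CPM in bleomycin KO (SD, n = 4), and the chitinase-like Chil3 1971 ± 1041 and 1088 ± 256 CPM. Neither passed, with adjusted p of 0.951 and 0.655. Retnla was at 90.5, 1081, 45.2 and 133 CPM against 43.9, 69.7, 81.2 and 62.4 CPM. Its high mean in saline WT came from replicate 2, and its log2 fold change was -2.33 with that library and -0.38 without it.

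Inflammatory mediators mostly had higher levels in bleomycin KO, and few of them were called. Of 27 tested, 22 had a log2 fold change above 0 (median 0.64), against 8617 of all 16679 genes. Their summed level did not overlap, at 6910 to 17400 CPM in saline WT (15400 to 17400 without saline WT 2) against 21900 to 23500 CPM in bleomycin KO. With 12 libraries 0 passed and with 10 libraries 3 were higher, among them Ccl9 and Il1a, against 0.377% of all genes. Il1a, the alarmin cytokine IL-1 alpha, was at 200, 0, 164 and 246 CPM in saline WT and at 676, 685, 811 and 688 CPM in bleomycin KO. It passed in the 7 libraries (adjusted p = 0.0209). Il1b overlapped between the groups at 1265 to 4853 and 3167 to 4215 CPM, and Tnf at 21.6 to 716 and 641 to 926 CPM. Interferon-stimulated genes had a median of 0.24 (0.03 under RLE scaling) and MHC class II genes one of 0.19 (0 under RLE scaling), with 0 called with 12 libraries in either list. Cd74, the invariant chain, averaged 10450 ± 4195 and 10010 ± 1562 CPM (SD, n = 4).

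Cell cycle genes had the highest median of all lists with 12 libraries, and none of them was called. Of 30 tested, 27 had a log2 fold change above 0 (median 1.23). Mki67, a marker of cycling cells, was at 33.1, 0, 12.9 and 13.3 CPM in saline WT and at 115, 70.5, 53.2 and 72.6 CPM in bleomycin KO, without overlap. Its adjusted p was 0.359 with 12 libraries and 0.0734 with 10. Top2a, the topoisomerase of dividing cells, was at 71.8, 108, 25.8 and 68.8 CPM against 137, 114, 95.9 and 68.1 CPM and overlapped (adjusted p = 0.776).

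Metabolic lists had medians of 0.54 for cholesterol synthesis and efflux, 0.62 for fatty acid oxidation and 0.37 for glycolysis and the hypoxia response. In the fits of 12, 11, 10, 8 or 7 libraries 0 members were called. In the same order 22 of 25, 20 of 23 and 19 of 23 members were above 0, against 8617 of all 16679 genes. Summed levels did not overlap for cholesterol (1310 to 1700 against 1940 to 2700 CPM) or fatty acid oxidation (508 to 1260 against 1470 to 1800 CPM). They overlapped for glycolysis. Acadl, a dehydrogenase of fatty acid oxidation, was at 32.1, 64.9, 54.4 and 74.3 CPM in saline WT and at 98.1, 115, 129 and 130 CPM in bleomycin KO (adjusted p = 0.507). Hk2, an inducible hexokinase, was at 15.1, 0, 35.3 and 29.8 CPM against 107, 81.3, 80.8 and 72.0 CPM (adjusted p = 0.516). Idi1, an enzyme of cholesterol synthesis, had 3 counts in saline WT and 60 in bleomycin KO, a ratio of 7.90 with a counting interval of 2.58 to 39.4, and did not pass the test across libraries (adjusted p = 0.53).

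Among transporters and among guidance receptors, single members passed. Among 26 solute carriers the median was 0.47, Slc6a8 was called with 12 libraries, and the proton-coupled amino acid transporter Slc36a2 with 10 (adjusted p = 0.019). Slc36a2 was at 2.19, 0, 1.23 and 6.66 CPM in saline WT and at 57.2, 49.0, 56.3 and 45.4 CPM in bleomycin KO. Among 22 plexins, semaphorins and neuropilins the median was -0.22, and Plxna1, a semaphorin receptor, was the 1 member called in the 7 libraries (adjusted p = 0.0294). Plxna1 was at 2.43, 0, 2.87 and 2.32 CPM against 96.7, 58.6, 37.8 and 32.5 CPM. Bleomycin KO 1 was the highest for Plxna1, and all bleomycin KO libraries were above all saline WT libraries.

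**Figure D5:**
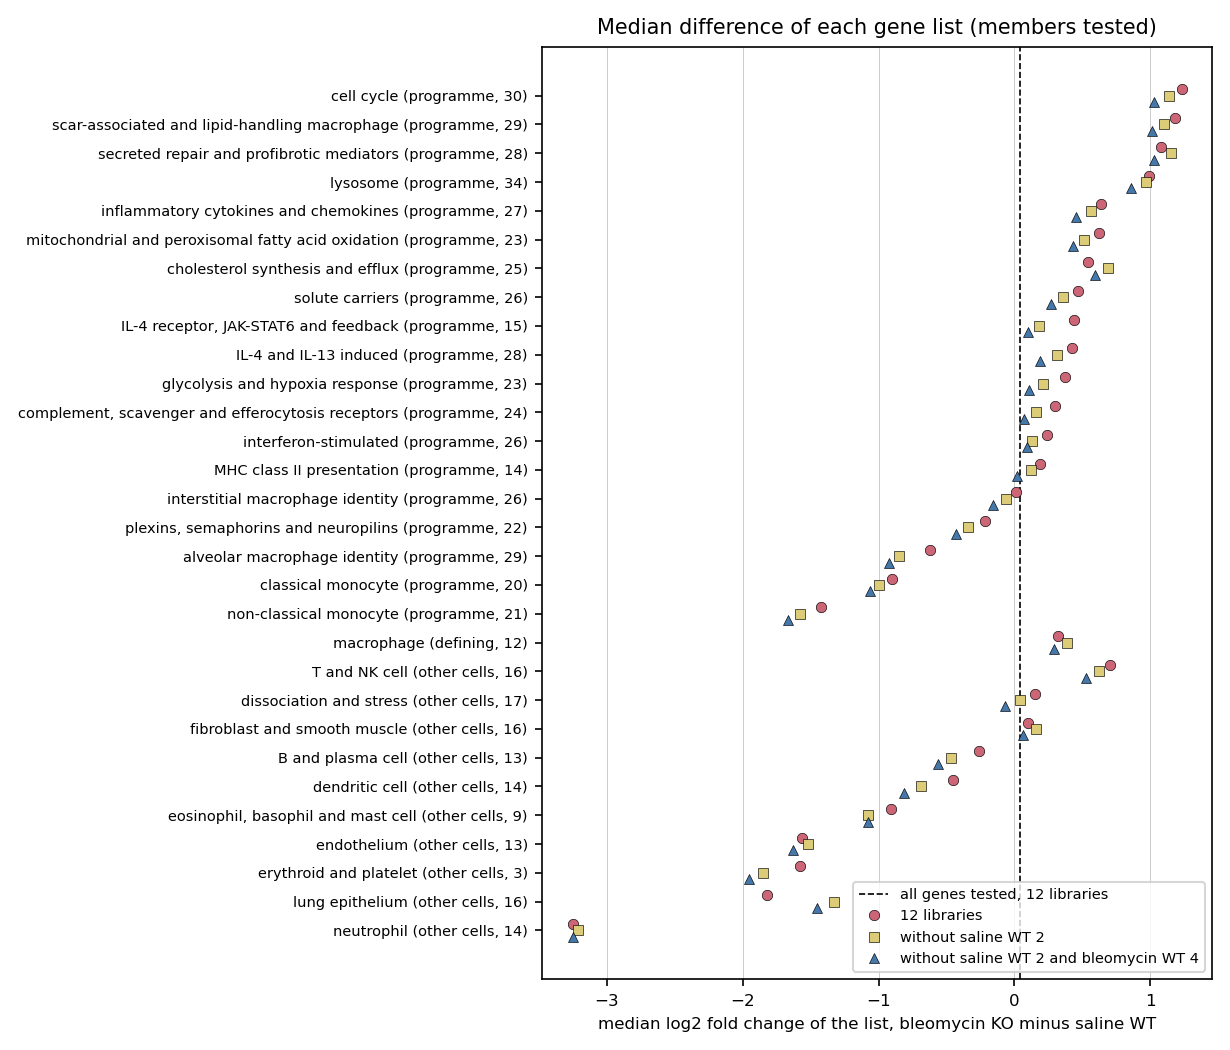
Median log2 fold change (bleomycin KO minus saline WT) of the tested members of each gene list, with 12 libraries, without saline WT 2, and without saline WT 2 and bleomycin WT 4. The dashed line is the median of all genes tested (0.04); scar-associated, secreted, lysosomal and cell cycle lists lie near 1, and the neutrophil list at -3.25.

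The bleomycin WT libraries carry the other genotype label after the same treatment. Of the 16679 genes tested, 0 (0%) differed between bleomycin KO and bleomycin WT in the edgeR fit, the smallest adjusted p was 0.934, and 647 genes had an unadjusted p under 0.05. DESeq2 and limma-voom also called 0, while edgeR without a filter on low counts called 243 of 40764. Spp1 averaged 13480 ± 10940 CPM in bleomycin WT and 11680 ± 1527 CPM in bleomycin KO (SD, n = 4; log2 difference -0.21, SE 0.60). Ctsd averaged 8205 ± 3063 and 8546 ± 521 CPM (log2 difference 0.06, SE 0.37). The bleomycin WT libraries spread more widely, as for Spp1. Slc6a8 averaged 12.9 ± 8.42 and 16.5 ± 7.45 CPM, with a log2 difference of 0.35 (SE 0.71).

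The standard errors of these differences were wide, so a test that missed the threshold does not show that the labels act alike. Syngr1 averaged 222 ± 142 CPM in bleomycin WT and 115 ± 19.0 CPM in bleomycin KO (SD, n = 4; log2 difference -0.95, SE 0.53). For Arg1 the averages were 381 ± 240 and 138 ± 51.4 CPM (log2 difference -1.47, SE 0.76), and for Igf1 741 ± 1016 and 232 ± 31.7 CPM (log2 difference -1.68, SE 0.71). The adjusted p was above 0.9 for each of the 3 genes. Bleomycin WT 4 was the highest bleomycin WT library for Syngr1 (422 CPM) and Igf1 (2265 CPM). Without it and saline WT 2 the log2 differences were -0.43 for Syngr1, 0 for Igf1, -1.50 for Arg1, -0.54 for Spp1, -0.14 for Ctsd and 0.07 for Slc6a8, and each adjusted p was again above 0.9.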

How the data were processed

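The authors deposited a table of raw counts per Ensembl gene for 12 libraries (52636 genes, 11872 with no count). Per the labels' protocols, full-length cDNA was amplified with SMART-Seq v4 reagents, which do not mark strand, and sequenced single-end. Per the submitters' processing notes, GSNAP, Partek and limma were used with GRCm38 and mm10, with roles and versions not given in the sources used here. Genes with overlapping or antisense partners, or near-identical copies, are uncertain: Gapdh stood at 0 to 4.02 CPM.

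CPM values were computed from the deposited counts with TMM library sizes. The test was edgeR 4.0.16 (R 4.3.3): filterByExpr by group, robust quasi-likelihood fit of 12 libraries on group alone, and a Benjamini-Hochberg threshold of 0.05 over all genes tested. CPM values in every fit's account use the TMM sizes of all 12 libraries. SE was taken as the log2 fold change over the root of F. Alternatives were DESeq2 1.42.0, limma-voom 3.58.1, RLE scaling, no filter, a replicate block and fits without libraries. Counting intervals are 95% and cover counting error only. Every pair of replicates differed beyond sampling noise (lowest chi-square per degree of freedom 27.4), so none was merged.

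The 8 libraries, the 30 gene lists (555 symbols, 554 matched, 538 tested) and the tests were chosen with earlier results of these data known. Named genes are Il4ra, called genes of 10 CPM or more whose groups do not overlap (12 libraries, and without saline WT 2), the 2 smallest p of each programme list and the 2 most abundant markers of each other cell type. Other genes were picked with their values in view, including those named from the fits of 7 and 10 libraries. Gene positions are GENCODE M21 (GRCm38); promoters were looked up for 4 genes and 3 matched.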

Additional observations from a re-analysis of the deposited data

Results flagged for a closer look

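Among the named genes, 120 gene and group pairs of 4 libraries were examined for 1 library far from the others by the 95% critical value of Dixon's gap ratio, and 7 had one. Chance flags about 5% of such pairs. Saline WT 2 accounted for 4 of the 7: it was the lowest for Cd2 at 0 CPM (157 to 169 in the others) and the highest for Ebf1 at 11500 CPM (18.1 to 30.6), Sparc at 432 CPM (58.1 to 81.1) and Itga2b at 21.6 CPM (0.724 to 3.08). One count in that library is worth 10.8 CPM, so Itga2b rests on very few counts there. In bleomycin KO, replicate 3 was the highest for Clec4n at 1250 CPM (956 to 1000 in the others) and for Il1a at 811 CPM (676 to 688), and replicate 2 for Itga2b at 10.2 CPM (0.912 to 1.78). For Clec4n and Il1a all bleomycin KO libraries were above every saline WT library.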

How the results depend on the processing

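The calls depended on the tool, the filter and the libraries. Against 3 genes higher and 0 lower, DESeq2 called 88 and 282, limma-voom 6 and 6, limma-voom with quality weights 87 and 145, RLE scaling 1 and 0, and testing without a filter 68 and 626. The fits of 8, 7 and 10 libraries called 1 and 0, 21 and 7, and 71 and 50. Leaving out each library in turn gave 0 to 14 higher and 0 to 4 lower. Removing saline WT 3, saline WT 4, bleomycin KO 1 or bleomycin KO 2 left 0 calls, and removing saline WT 1, bleomycin WT 1, bleomycin WT 2, bleomycin KO 3 or bleomycin KO 4 left 1. Removing bleomycin WT 3 left 2, saline WT 2 gave 10 and bleomycin WT 4 gave 14 and 4. List members called numbered 3 with 12 libraries, 1 with RLE, 1 with 8 libraries, 8 without saline WT 2 and 44 with 10. The cause was not tested.

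Same-numbered libraries of saline WT and bleomycin KO did not deviate together (correlations -0.15, -0.02, -0.13 and 0.01), and the replicate block called 1 gene higher and 0 lower. Of 21 alternatives, Syngr1 was called in 15, Spp1 in 9 and Slc6a8 in 6. Il4ra kept its direction in all 21 and was called in none (adjusted p 0.425 to 0.922).

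The named genes that changed sign were not called with 12 libraries nor under the setting that changed it. Ccr7 went to -0.16 (DESeq2), -0.17 (RLE), -0.28 (7 libraries) and -0.36 (10). Igkc went to -0.05 (DESeq2 and RLE), -0.51 (quality weights) and -0.01 (block). Itga2b went to -0.01 (DESeq2), -0.14 (RLE) and -0.29 (block). Sparc went to 0.27 (voom), 0.25 (quality weights), 0.53 (7 libraries) and 0.46 (10). Junb went to -0.01 and -0.07 with 7 and 10 libraries, Fos to -0.03 with 10, and Calcrl to 0.27 under the block. Over the fits that left out 1 library, Ccr7 ranged from -0.24 to 0.76, Igkc from -0.27 to 0.62, Itga2b from -1.48 to 1.16, Sparc from -0.94 to 0.57 and Calcrl from -0.28 to 0.43. RLE moved the median of all genes from 0.04 to -0.12, and the medians of interstitial macrophage (-0.21), fibroblast (-0.03) and stress genes (-0.06) changed sign with it. Depth limits saline WT 2, where 3 counts are 32.4 CPM.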

Other observations

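Several genes outside the lists, all named after their values were seen, passed in the edgeR fit without saline WT 2 and bleomycin WT 4. Mfge8, whose product bridges apoptotic cells to phagocytes, was at 15.6, 75.7, 28.7 and 41.9 CPM in saline WT and at 124, 133, 135 and 147 CPM in bleomycin KO, with no overlap (log2 fold change 2.22, adjusted p = 0.0213). Pdpn, the membrane glycoprotein podoplanin, was at 17.3, 0, 4.00 and 5.50 CPM against 78.5, 61.3, 73.3 and 56.3 CPM (log2 fold change 2.91, adjusted p = 0.0437). The inhibitory IgG receptor Fcgr2b rose as well, at 431, 32.4, 306 and 251 CPM against 775, 774, 820 and 688 CPM (log2 fold change 1.19, adjusted p = 0.0437). None of these 3 genes passed with 12 libraries, where their adjusted p was 0.326, 0.207 and 0.366.

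Acod1, the enzyme that makes itaconate, was lower in that fit, at 291, 32.4, 1429 and 1046 CPM in saline WT against 134, 130, 109 and 118 CPM in bleomycin KO (log2 fold change -2.92, adjusted p = 0.0213). Saline WT 2 fell below the bleomycin KO libraries for Acod1. The protease inhibitor Slpi was at 325, 422, 1474 and 951 CPM against 193, 169, 169 and 152 CPM (log2 fold change -2.43, adjusted p = 0.0437). For both genes saline WT 3 and 4 were the highest libraries, as they were for the summed neutrophil markers, and the part of those cells was not tested. The genes A430033K04Rik, Zfp873, Sapcd2 and Gm37035 had 0 counts in saline WT and 572, 252, 246 and 177 counts in bleomycin KO, at least 76.2-fold, 33.6-fold, 32.8-fold and 23.6-fold higher against 3 counts over the group. In the other direction 4930544L04Rik and Olfr57 had 132 and 111 counts in saline WT and 0 in bleomycin KO, at least 110-fold and 92.6-fold lower. Their saline WT levels averaged 8.31 ± 7.82 and 6.57 ± 4.62 CPM (SD, n = 3, without saline WT 2). All these genes passed with 10 libraries and none with 12. The edgeR adjusted p with 12 libraries was 0.171 for the lower genes and 0.207 to 0.232 for the higher genes.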
